A study of Homo sapiens with 16 samples.

Results

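The subject is the culture without latrunculin B: what day-19 pancreatic progenitors expressed, and what had shifted 24 h later. Its members are the 5 control libraries among the 16 of the series, taken by their titles, 3 harvested at 0 h and 2 at 24 h. All 16 came from SA121, a human embryonic stem cell line with an NGN3-GFP genotype, in which a fluorescent protein reports NEUROG3 (also called NGN3). The cells were differentiated to pancreatic progenitors (day 19), and polyA RNA was sequenced. The 24 h control received DMSO, the vehicle. The 0 h control is tagged DMSO as well, but the series text places its harvest before treatment, so a day of culture and a day of vehicle cannot be told apart. The remaining 11 libraries received 0.5 µM latrunculin B, which depolymerises actin, for 3 h (n = 3), 6 h (n = 3), 12 h (n = 2) or 24 h (n = 3). All cells derive from 1 line, and the labels do not say that replicates were separate cultures, so p-values measure the spread between these samples, which may be technical.

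Pancreatic progenitors are epithelial cells of the embryonic gut tube that carry the transcription factors PDX1, SOX9 and NKX6-1 and can still give rise to endocrine, duct and acinar cells. They divide, and a cell that switches on NEUROG3 leaves the cell cycle and takes the endocrine path. Many genes of the cell cycle are transcribed in waves, those for DNA synthesis before and during S phase and those for mitosis in G2, so their level in bulk RNA depends on how many cells are dividing.

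The 5 control libraries held 23831223 to 32224335 estimated reads. The Pearson correlation of log2 CPM (read counts scaled to a common library size) was 0.980 to 0.985 over all pairs of control libraries, and pairs within a time overlapped in it with pairs across times. It is taken across genes, which are not independent replicates. The 12 h latrunculin B library of replicate 2 stood apart in stromal genes (summed level 1181 CPM against 193 to 463 CPM in the other 15 libraries). It entered the control comparison through the filter on low counts, the scaling between libraries and the shared estimate of the spread.

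At 0 h the culture had the transcripts of a pancreatic progenitor epithelium. In TPM, the deposited level per transcript length that can be compared between genes, PDX1 stood at 162 ± 6.00 (SD, n = 3), SOX9 at 130 ± 3.89 and NKX6-1 at 49.8 ± 1.95. The further progenitor factors MNX1 (60.5 ± 1.54), GATA6 (59.5 ± 2.68) and FOXA2 (41.5 ± 0.819) were in the same range, whereas PTF1A, the acinar and multipotent progenitor factor, was at 0.456 ± 0.408 TPM. Of the 18 progenitor factors, 1 was below 1 TPM. Epithelial genes were abundant, with the keratin KRT8 at 2637 ± 48.6 TPM, the adhesion molecule EPCAM at 1191 ± 18.3 TPM and the chloride channel CFTR at 551 ± 13.6 TPM. In all, 13331 genes reached 1 TPM in each of the 3 libraries, 12621 of them protein-coding.

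Among protein-coding genes other than ribosomal protein and mitochondrial genes, the most abundant was EEF1A1, a translation elongation factor (11482 ± 554 TPM). IGF2, a fetal growth factor (9367 ± 468 TPM), and DLK1, an imprinted membrane protein of fetal endocrine tissues (8356 ± 630 TPM), came next. SPINK1, a trypsin inhibitor, followed at 4408 ± 189 TPM, although the digestive enzyme CPA1 was at 3.70 ± 0.175 TPM. DLK1 and SPINK1 differed by more than the spread of either, while IGF2 and DLK1 differed by less than the sum of their SDs.

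Most endocrine transcription factors were scarce at 0 h, while hormone and granule genes ranged widely. NEUROG3 was at 0.701 ± 0.437 TPM, NKX2-2 at 0.214 ± 0.0680 TPM and INS, the insulin gene, at 0.787 ± 0.326 TPM. Of 21 endocrine transcription factors, 15 were below 1 TPM, and SOX4, which progenitors also use, was the highest at 79.9 ± 4.06 TPM. Somatostatin (SST, 44.1 ± 4.74 TPM) and the granule protein CHGA (19.0 ± 2.71 TPM) were measurable well above 1 TPM. Of the 22 hormone and granule genes, 11 were below 1 TPM, and the 22 together summed to 1409 to 1568 TPM at 0 h. TTR is on this list and also on the list of serum proteins, so it enters the counts of both.

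The culture also carried transcripts of neighbouring endoderm. FGB, a fibrinogen chain, stood at 832 ± 47.5 TPM and APOA1, an apolipoprotein, at 488 ± 48.7 TPM, while ALB, the albumin gene of mature hepatocytes, was at 0.718 ± 0.218 TPM. The intestinal factor CDX2 was at 57.5 ± 8.03 TPM, and SOX2, which marks stomach and stem cells, was at 0.146 ± 0.0268 TPM. Among stem cell genes LIN28A was at 176 ± 7.03 TPM, a gene that fetal tissues keep, whereas POU5F1 was at 1.40 ± 0.423 TPM and NANOG at 0.213 ± 0.0486 TPM. Stromal collagen COL1A2 was at 26.2 ± 7.18 TPM, and the endothelial CDH5 (0.040 ± 0.0692 TPM) and leukocyte PTPRC (0 in each 0 h library) were at or near 0. These 2 do not stand for their whole list. Of its 10 endothelial and blood genes 7 were below 1 TPM, and the 10 together summed to 34.5 to 45.5 TPM at 0 h.

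**Figure D1:**
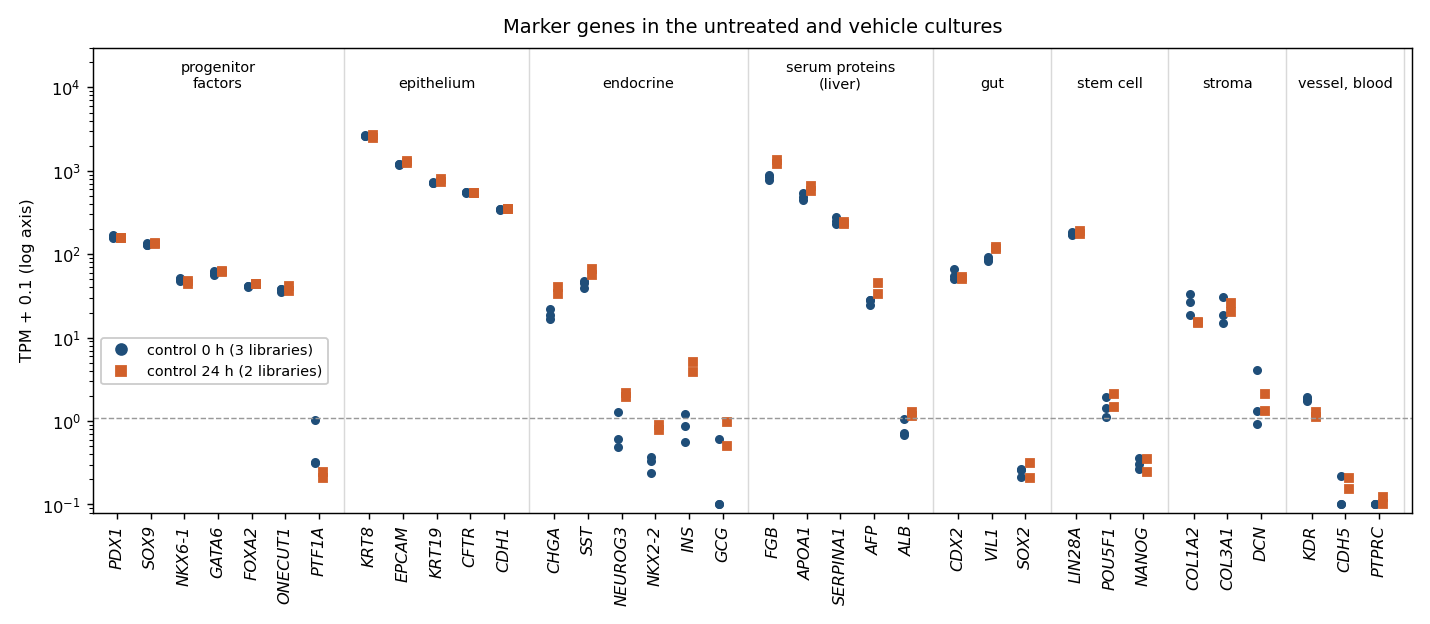
TPM plus 0.1 on a log axis for marker genes grouped by cell type, with circles for the 3 control 0 h libraries and squares for the 2 control 24 h libraries; the dashed line stands for 1 TPM. Progenitor and epithelial genes lie together at both times. Of the endocrine genes drawn, NEUROG3, NKX2-2, INS and CHGA lie higher in both 24 h libraries than in all 3 at 0 h, against 14.4% of all genes tested. This does not cover SST and GCG, drawn in the same block.

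The question for the day that followed was which of these levels moved without the drug. Of 16705 genes tested with edgeR's quasi-likelihood test, 42 (0.251%) were called at an adjusted p under 0.05, 37 lower at 24 h (0.221%) and 5 higher (0.0299%). Of the 37, 16 belong to the lists for mitosis and DNA replication, and of the 5, 2 belong to the list of serum proteins. The median log2 fold change over all genes tested was 0.01. The calls sit close to the threshold, since 33 of the 42 had an adjusted p above 0.04, and leaving out any single control library left 2 to 9 calls. DESeq2 called 41 of the 42 and 267 genes in all (0.263% higher, 1.33% lower), and edgeR on the 5 control libraries alone called 39 of the 42 (0.35% of its genes higher, 1.01% lower). At an unadjusted p under 0.05 edgeR gave 1414 genes (8.46%).

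Of the 37 genes called lower, PSMB3 and FUT1 are set aside here, since in each the difference lies in 1 transcript whose reads were at 0 in both 24 h libraries. All reads of PSMB3, a proteasome subunit, came from 1 transcript with 990, 1139 and 568 reads at 0 h and 0 in each of the other 13 libraries. When the authors' gene values were summed over both of its identifiers, PSMB3 stood at 1640, 1367 and 1416 at 0 h and 1320 and 1415 at 24 h, which overlap. A transcript of FUT1, a fucosyltransferase, had 114, 86.8 and 96.2 reads at 0 h and 0 in both 24 h libraries, while the authors' gene values were 126, 127 and 135 against 102 and 105. Log2 changes of the other 35 ran from -1.16 to -0.29, with a median of -0.72. By list and textbook role, 14 belonged to mitosis, 2 to DNA replication, 14 to further roles in division or DNA repair (a grouping made after their values were seen), and 5 to none of these.

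Of the 62 genes on the mitosis list, edgeR called 14 (0.221% of all genes lower) and DESeq2 called 49 (1.33% of all genes lower), all lower. Without 0 h replicate 1 edgeR called 0, and without 24 h replicate 1 the median log2 change of the 62 was -0.63. KIFC1 (ENSG00000237649; GRCh38 chromosome 6, 33391823 to 33409896), a motor that focuses spindle poles, was at 24.4, 22.1 and 20.8 CPM at 0 h and at 9.19 and 11.1 CPM at 24 h. The mean of the later libraries was 0.45 of the mean at 0 h, which is -1.14 on the log2 scale (SE 0.15, adjusted p by edgeR 0.0122). FOXM1, the transcription factor that drives the G2 wave, stood at 39.3, 34.3 and 36.6 CPM and then at 19.5 and 21.6 CPM (log2 -0.84, SE 0.12, edgeR adjusted p 0.0155). CDK1, the kinase that starts mitosis, went from 42.8, 35.4 and 37.6 CPM to 19.5 and 23.1 CPM (log2 -0.86, SE 0.15). The lowest 0 h library stayed well above the highest 24 h library in all 3 genes, and the groups did not overlap in any of the 42 called genes. The same held, in each direction, for 14.4% of all genes tested, and for called genes it adds nothing to the call.

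The other 11 called mitosis genes cover the stages of division. NCAPH (log2 -0.95) is a condensin subunit, NUF2 (-0.95) a part of the outer kinetochore, HJURP (-0.93) the chaperone that places the centromeric histone, and TTK (-0.82) a kinase of the spindle checkpoint. CDCA5 (-0.999), which protects cohesin, and ESPL1 (-1.02), the separase that cuts it, both fell. CDCA8 (-0.73), KIF22 (-0.59), KIF23 (-0.82), ANLN (-0.72) and RACGAP1 (-0.67) act at the chromosomes, the central spindle and the cleavage furrow.

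Beyond single calls, 60 of the 62 mitosis genes were lower in both 24 h libraries than in all 3 at 0 h, against 14.4% of all genes tested. The median log2 change of the 62 was -0.74, and 60 passed an unadjusted p under 0.05 as lower, against 5.3% of all genes. CCNA2 and CDC25C were the 2 whose groups overlapped. MKI67, the proliferation marker, was at 85.8, 69.0 and 70.9 CPM and then at 36.3 and 39.6 CPM, and missed the threshold (log2 -0.99, SE 0.20, edgeR adjusted p 0.0590). The largest log2 difference of the list was in SPC25 (-2.89), a kinetochore gene at 4.58 to 6.70 CPM at 0 h and at 0.610 and 0.971 CPM at 24 h, which was not called (edgeR adjusted p 0.348). CDC25B, a phosphatase that acts on CDK1, had the smallest (-0.12, SE 0.21). In bulk RNA, fewer dividing cells and less of each transcript per cell cannot be told apart.

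Promoters of the called genes are shown because mitotic genes share sequence elements in them. Of the 35 called lower, 27 were found in the RefSeq promoter table (GRCh38.p14), which holds 250 bases before and 50 after each gene's start. The search covered both strands for TTTGAA (CHR, the cell cycle genes homology region), CCAAT (the NF-Y box) and TTGGCGC or TTCCCGC (E2F sites), and the letters of the 3 kinds do not contain one another. The stretches below run from 120 bases before the start to 30 after it, 5′ to 3′ on the gene's strand, with motif matches in capitals. They belong to the 3 called mitosis genes with the smallest p that the table holds, KIFC1 (chr6:33391703-33391852, plus strand), KIF23 (chr15:69414229-69414378, plus strand) and ANLN (chr7:36389742-36389891, plus strand), and to RRM2 (chr2:10122448-10122597, plus strand) for contrast.
KIFC1: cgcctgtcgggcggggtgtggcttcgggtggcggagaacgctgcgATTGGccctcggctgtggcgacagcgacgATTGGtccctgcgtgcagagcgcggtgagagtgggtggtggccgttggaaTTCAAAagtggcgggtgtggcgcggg
KIF23: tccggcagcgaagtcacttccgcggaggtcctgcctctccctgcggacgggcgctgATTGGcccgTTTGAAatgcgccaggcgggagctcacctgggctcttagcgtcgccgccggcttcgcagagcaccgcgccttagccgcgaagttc
ANLN: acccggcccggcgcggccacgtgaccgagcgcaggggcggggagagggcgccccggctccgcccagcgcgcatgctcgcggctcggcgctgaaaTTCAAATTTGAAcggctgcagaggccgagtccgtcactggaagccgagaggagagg
RRM2: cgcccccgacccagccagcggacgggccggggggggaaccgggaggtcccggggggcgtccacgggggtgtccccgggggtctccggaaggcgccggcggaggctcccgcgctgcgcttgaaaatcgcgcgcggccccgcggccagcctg

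KIFC1 and KIF23 hold both a CHR and a CCAAT box, and ANLN holds 2 CHR letters side by side on opposite strands and no CCAAT. RRM2 shows no match in this stretch, and its CCAAT and E2F letters lie further upstream in the window. Over the lists, TTTGAA was in 35 of 50 promoters of mitosis genes (70%) and in 2 of 44 of replication genes (4.55%), against 10.5% of 12169 promoters of protein-coding genes tested, the background for each share here. E2F letters were in 29 of 44 replication promoters (65.9%) and 12 of 50 mitosis promoters (24%), against 13.6%. CCAAT was in 78% of mitosis and 56.8% of replication promoters, against 35.6%. The letters GATAAG, searched for comparison, were in 1 of 50 mitosis promoters and 0 of 44 replication promoters, against 4.13%. Among the 27 promoters of called genes, 14 held TTTGAA (51.9%) and 8 held E2F letters (29.6%). These matches describe letters in a window and say nothing of which factor bound there.

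Of the 51 genes on the DNA replication list, edgeR called 2 (0.221% of all genes lower) and DESeq2 called 27 (1.33% of all genes lower), all lower. Without 0 h replicate 1 edgeR called 0, and without 24 h replicate 1 the median log2 change of the 51 was -0.52. RRM2 (ENSG00000171848), the subunit of ribonucleotide reductase that limits the supply of DNA building blocks, was at 59.5, 53.3 and 50.9 CPM at 0 h and at 22.7 and 28.2 CPM at 24 h (log2 -1.10, SE 0.15, edgeR adjusted p 0.0122). GINS4, a part of the replicative helicase, fell from 16.3, 14.3 and 15.5 CPM to 9.46 and 9.55 CPM (log2 -0.69, SE 0.13). Both genes had every 24 h library below every 0 h library, as had every gene called lower and 14.4% of all genes. For called genes it adds nothing to the call. The sliding clamp PCNA was at 77.1, 66.5 and 70.0 CPM against 48.7 and 56.5 CPM and was not called (log2 -0.44, SE 0.14, edgeR adjusted p 0.273). Of the 51 replication genes, 49 had both 24 h libraries below all at 0 h (14.4% of all genes), 47 had an unadjusted p under 0.05 as lower (5.3% of all genes), and the median was -0.59. SLBP, which binds histone mRNA, was at 73.2, 69.4 and 71.9 CPM and then at 67.8 and 75.4 CPM, and its groups overlapped.

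A further 14 genes called lower act in division or DNA repair but stood in neither list. DSCC1 (log2 -1.16, SE 0.20), which loads the sliding clamp, had the largest fall of all 35, from 6.82, 6.03 and 6.57 CPM to 2.58 and 3.19 CPM. MELK (-0.84), CENPK (-0.83), HMGB2 (-0.74), TRIP13 (-0.70), FAM83D (-0.65), FANCA (-0.64), DEPDC1B (-0.62), TUBA1B (-0.59), CDCA4 (-0.55), UBE2T (-0.54), CCNF (-0.50), SMC4 (-0.50) and H2AX (-0.48) followed. FANCA and UBE2T belong to the Fanconi anaemia repair pathway, CCNF is a cyclin that marks proteins for destruction, and TUBA1B is a tubulin at 501 to 581 CPM at 0 h.

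Regulators of cell cycle exit gave no call. Of 20 genes for CDK inhibitors, D cyclins and pocket proteins, 0 were called by edgeR or DESeq2. At an unadjusted edgeR p under 0.05, 4 were lower (5.3% of all genes) and 0 were higher (3.16% of all genes). CDKN1C, the CDK inhibitor p57, stood at 350, 362 and 358 CPM and then at 342 and 361 CPM (log2 -0.02, SE 0.17). CCND1, the D cyclin with the highest level, was at 2807, 2793 and 2685 CPM and then at 2302 and 2398 CPM (log2 -0.23, SE 0.07, edgeR adjusted p 0.280). CDKN2C, an inhibitor of CDK4 and CDK6, had the largest difference of the list (log2 -1.13, SE 0.36) at 1.04 to 1.83 CPM at 0 h.

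**Figure D2:**
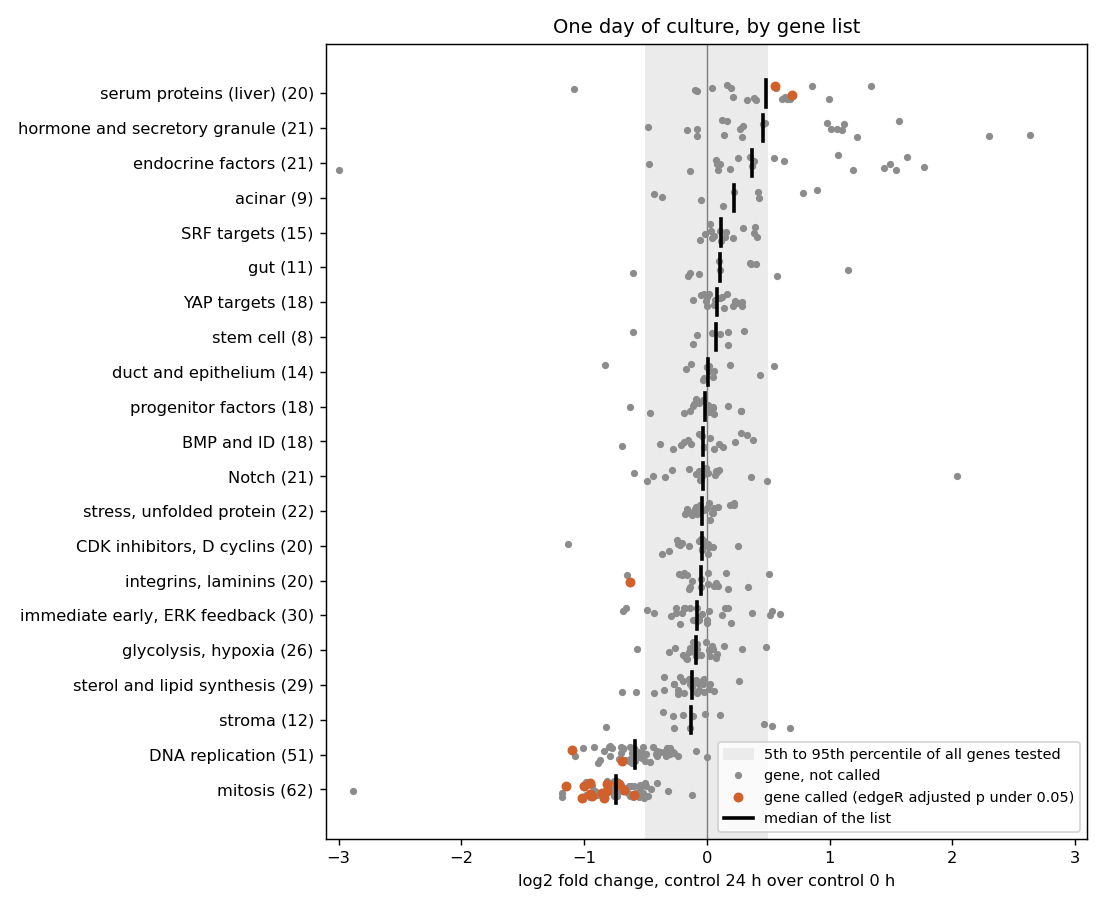
Log2 fold change of control 24 h over control 0 h (horizontal axis) for the members of 21 gene lists, with the number tested in parentheses; orange points are called, black bars are list medians, and 1 gene beyond 3 is drawn at the edge. The medians of mitosis (-0.74) and DNA replication (-0.59) lie outside the grey band from the 5th to the 95th percentile of all genes (-0.50 to 0.49), and serum protein and endocrine lists have the highest medians.

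The 5 remaining genes called lower have no textbook role in division. FLT1, a receptor for vascular growth factors, was at 33.9, 31.3 and 26.6 CPM at 0 h and at 15.8 and 18.3 CPM at 24 h (log2 -0.85, SE 0.11, edgeR adjusted p 0.0111). CDH5, a defining endothelial gene, was at 0 to 0.369 CPM in the control libraries. The tested endothelial and blood genes together summed to 43.7 to 51.6 CPM at 0 h and to 42.3 and 40.1 CPM at 24 h. ITGA1, the alpha chain of a collagen receptor, was at 83.5, 71.1 and 71.1 CPM against 45.9 and 51.6 CPM (log2 -0.63, SE 0.11, edgeR adjusted p 0.0469). The mannosidase MAN1C1 (-0.63), the metalloprotease ADAMTS16 (-0.56) and the glycosaminoglycan enzyme B3GAT3 (-0.29) completed the group. ITGA1 was the only one of 20 integrin and laminin genes to be called, against 0.251% of all genes. ITGA3 (64.7, 63.1 and 63.4 CPM, then 65.2 and 67.2 CPM) and ITGA6 (216, 197 and 210 CPM, then 196 and 205 CPM), chains of laminin receptors, were not called.

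Of the 5 genes called higher, 2 encode listed serum proteins. SERPINF2 (ENSG00000167711; GRCh38 chromosome 17, 1742836 to 1755265), which encodes the plasmin inhibitor alpha2-antiplasmin, was at 79.0, 86.6 and 88.9 CPM at 0 h and at 142 and 132 CPM at 24 h. On the log2 scale it rose by 0.69 (SE 0.06, adjusted p by edgeR 0.000252), and it kept its call in 17 of 20 alternatives. Its neighbour SERPINF1 (chromosome 17, 1762029 to 1777565), the secreted factor PEDF, went from 158, 170 and 178 CPM to 245 and 251 CPM (log2 0.56, SE 0.09, edgeR adjusted p 0.0469). TCN1, a vitamin B12 carrier outside the list, rose from 929, 942 and 966 CPM to 1336 and 1382 CPM (log2 0.52, SE 0.10, edgeR adjusted p 0.0477). The last 2 called genes are without a symbol, ENSG00000290854 on chromosome 1 (1724838 to 1745992, log2 1.17) and ENSG00000291006 on chromosome 6 (52664366 to 52669155, log2 0.43), both annotated as long non-coding RNA.

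Of the 20 serum protein genes tested, out of 23, edgeR called 2 higher and 0 lower, against 0.0299% and 0.221% of all genes. In 13 both 24 h libraries lay above all at 0 h and in 1 below, against 14.4% of all genes in each direction. The median log2 change was 0.48. FGB was at 650, 563 and 596 CPM and then at 985 and 905 CPM without being called (log2 0.65, SE 0.21, edgeR adjusted p 0.301). SERPINA3, an acute-phase protease inhibitor, had the opposite sign, with 201, 152 and 150 CPM against 78.9 and 79.1 CPM (log2 -1.09, SE 0.46, edgeR adjusted p 0.527). Albumin stayed at 0.170 to 1.25 CPM in the 5 libraries.

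**Figure D3:**
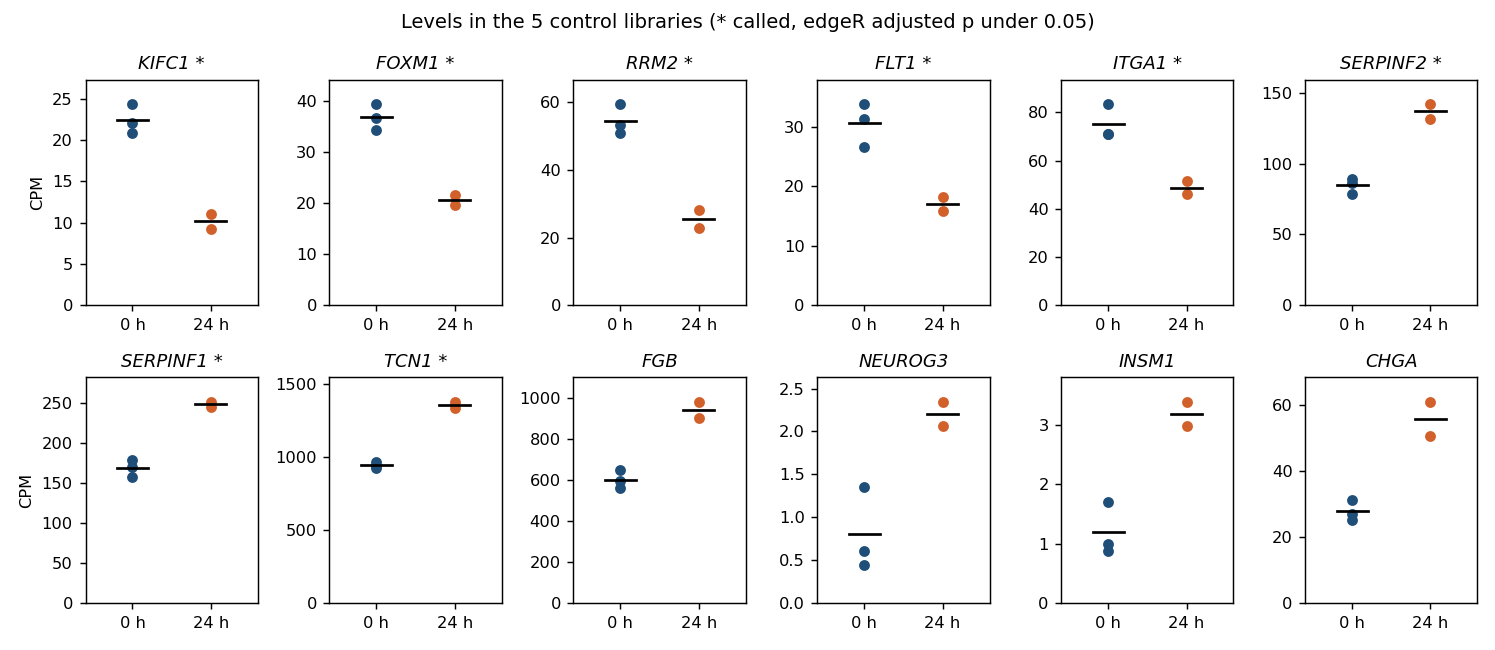
CPM in each control library for 12 genes, with 0 h and 24 h on the horizontal axis, points for libraries and bars for means; stars mark called genes and each axis starts at 0. In all 12 genes the 2 libraries at 24 h lie to one side of the 3 at 0 h. The same held for all 42 called genes and, in each direction, for 14.4% of all genes tested. For the starred genes it therefore adds nothing to the call.

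Many endocrine genes had both 24 h libraries above all at 0 h, a number of them at low levels, and edgeR called none of them. NEUROG3, the switch to the endocrine fate, had 11, 18 and 32 reads at 0 h and 61 and 75 reads at 24 h. In CPM it was at 0.438, 0.603 and 1.36 and then at 2.07 and 2.35 (log2 1.49, SE 0.48, edgeR adjusted p 0.294). Its targets and partners NKX2-2 (log2 1.77, SE 0.49, edgeR adjusted p 0.177), INSM1 (1.44, SE 0.45) and PAX4 (1.54, SE 0.51) had the same sign. None of these 4 genes had overlapping groups (14.4% of all genes in each direction), and all stayed below 4 CPM. They do not stand for their whole list, in which 3 factors had the opposite sign.

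Across the 21 endocrine factors, 10 had both 24 h libraries above all at 0 h (14.4% of all genes) and 0 had them below, 6 had an unadjusted p under 0.05 as higher (3.16% of all genes), and the median was 0.36. Of the 21, 18 had a positive and 3 a negative log2 change, and the largest in size was a fall (-4.35 to 1.77 over the list). DESeq2 called 3 of the 21 higher, against 0.263% of all genes. Of 21 hormone and granule genes tested, 13 had both libraries above and 1 below, against 14.4% of all genes in each direction. Of these 21, 9 had an unadjusted p under 0.05 as higher (3.16% of all genes), DESeq2 called 1 higher (0.263% of all genes), and the median was 0.45. CHGA was at 27.1, 25.1 and 31.0 CPM and then at 60.9 and 50.4 CPM (log2 1.01, SE 0.43, edgeR adjusted p 0.527). INS rested on 4, 10 and 3 reads at 0 h and on 44 and 38 reads at 24 h (log2 2.63, SE 0.70, edgeR adjusted p 0.158). Of the 21 factors tested, 5 had under 10 reads in every 0 h library, as did 2 of the 21 hormone and granule genes. They passed the filter on low counts through other groups, which include the 24 h control, and the counts above include them. At a mean of at least 50 counts, taken over all libraries, 12 factors stayed, with a median of 0.46. Of these, 5 had an unadjusted edgeR p under 0.05 as higher. For hormone and granule genes 14 stayed, with a median of 0.28 and 6 higher.

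Of the 18 progenitor factors 0 were called by edgeR or by DESeq2, and the median log2 change was -0.01. PDX1 was at 345, 341 and 322 CPM and then at 316 and 317 CPM (log2 -0.09, SE 0.11). SOX9 (0.02, SE 0.09) and NKX6-1 (-0.14, SE 0.11) were not called, and FOXA1 (0.28, SE 0.10) and ONECUT1 (0.27, SE 0.09) were the 2 with an unadjusted p under 0.05.

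In the Notch pathway, which holds progenitors back from the endocrine fate, the receptor NOTCH2 came nearest to a call, with 607, 561 and 546 CPM against 446 and 458 CPM (log2 -0.34, SE 0.07, edgeR adjusted p 0.0520). The Notch target HEY1 was at 35.2, 35.1 and 32.5 CPM and then at 22.1 and 23.3 CPM (log2 -0.60, SE 0.20), while HES1 stood at 112, 115 and 109 CPM and then at 122 and 118 CPM (log2 0.10, SE 0.13). Of 21 Notch genes tested, edgeR called 0 and DESeq2 called 1, as lower (1.33% of all genes). At an unadjusted edgeR p under 0.05, 3 were lower (5.3% of all genes) and 0 were higher.

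Among 29 sterol and lipid synthesis genes, 0 were called by edgeR, 10 had an unadjusted p under 0.05 as lower (5.3% of all genes) and 0 as higher, and 14 had both 24 h libraries below all at 0 h (14.4% of all genes). FASN, the fatty acid synthase, was at 394, 399 and 375 CPM against 318 and 329 CPM (log2 -0.27, SE 0.06, edgeR adjusted p 0.0635). DESeq2 called 2 genes of this list lower, against 1.33% of all genes.

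Targets of YAP, the co-activator that responds to tension, gave 0 calls among 18 by edgeR and by DESeq2, and 0 at an unadjusted p under 0.05. Of the 18, 6 had both 24 h libraries above all at 0 h and 1 had them below, against 14.4% of all genes in each direction, and their summed level was 1830 to 1914 CPM at 0 h against 1976 and 2123 CPM at 24 h. CCN2 was at 166, 178 and 178 CPM and then at 164 and 184 CPM, and CCN1 at 77.5, 82.6 and 81.1 CPM and then at 82.3 and 90.9 CPM (log2 0.11, SE 0.32). PDK4, a kinase of pyruvate dehydrogenase, stood at 34.2, 30.2 and 33.2 CPM and then at 23.5 and 23.0 CPM, and was not called. In the remaining lists (acinar, duct, gut, stem cell, stroma, endothelium and blood, neural, BMP, SRF, immediate early, glycolysis, pyruvate dehydrogenase, stress, heat and metal, retinoic acid, WNT and TGF-beta) edgeR called 0 of 240 tested members (a gene in more than 1 list counts in each). DESeq2 called 1 higher and 3 lower, against 0.263% and 1.33% of all genes. At an unadjusted edgeR p under 0.05, 8 were higher and 12 lower, close to the shares over all genes (3.16% and 5.3%). The pooled counts hide single lists, of which these were picked after their values were seen. Both 24 h libraries lay above all at 0 h in 8 of 15 SRF genes and below in 0, against 14.4% of all genes each way. For retinoic acid genes it was 5 above and 1 below of 13, and for immediate early genes 5 above and 12 below of 30. Retinoic acid genes summed to 653 to 661 CPM at 0 h and 783 and 807 CPM at 24 h. Immediate early genes summed to 2018 to 2086 CPM and then 1833 and 1872 CPM.

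The latrunculin B libraries give a second view of a day in culture, under the drug, without sharing a library with the controls. Between 3 h and 24 h, a span of 21 h, 7397 of 16705 genes were called (44.3%). Of the 35 genes that fell in the control, 17 were called lower there, against 22% of all genes, 3 were called higher and 15 were not called, with a median log2 change of -0.27. The 3 that rose were FAM83D (0.68), UBE2T (0.28) and CCNF (0.23). The log2 change of FLT1 was -1.88 under the drug and -0.85 in the control.

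Summed levels of mitosis and replication genes separated the control times and overlapped between 3 h and 24 h of the drug. The 62 mitosis genes summed to 1540 to 1775 CPM at 0 h, 920 and 1072 CPM at 24 h in the control, 1379 to 1634 CPM at 3 h in latrunculin B and 1090 to 1420 CPM at 24 h in latrunculin B. The 51 replication genes summed to 1386 to 1518 CPM at 0 h and to 1002 and 1087 CPM in the 24 h control. They stood at 1327 to 1644 CPM after 3 h and at 1619 to 1726 CPM after 24 h of latrunculin B. Between 3 h and 24 h of the drug, 24 of 62 mitosis genes were called lower and 4 higher, and 15 of 51 replication genes were called higher and 7 lower, against 22.3% of all genes higher and 22% lower. The difference between the 2 changes, which shares the control libraries, was called for 4665 genes (27.9%), among them 31 replication genes, all toward a higher level under the drug, against 14.6% of all genes in that direction. For the 62 mitosis genes it was called for 14 in that direction and 1 in the other, against 14.6% and 13.4% of all genes. Both lists were lower in the 24 h control than at 0 h, and that change is one side of this difference.

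**Figure D4:**
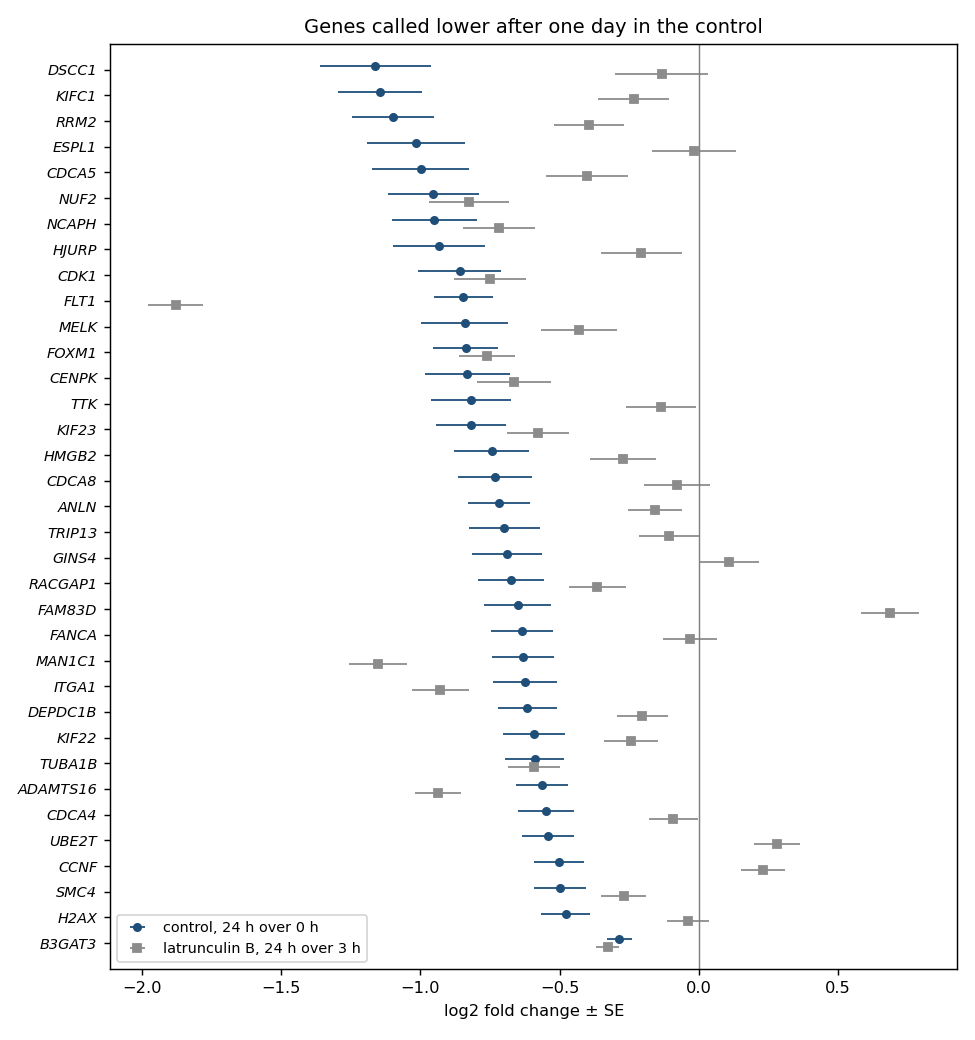
Log2 fold change with its SE (horizontal axis) for the 35 genes called lower in the control, PSMB3 and FUT1 left out, in control 24 h over 0 h (circles) and latrunculin B 24 h over 3 h (squares). The control values were chosen for being low; under latrunculin B FAM83D, UBE2T and CCNF lie above 0, and FLT1 lies lowest at -1.88.

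**Figure D5:**
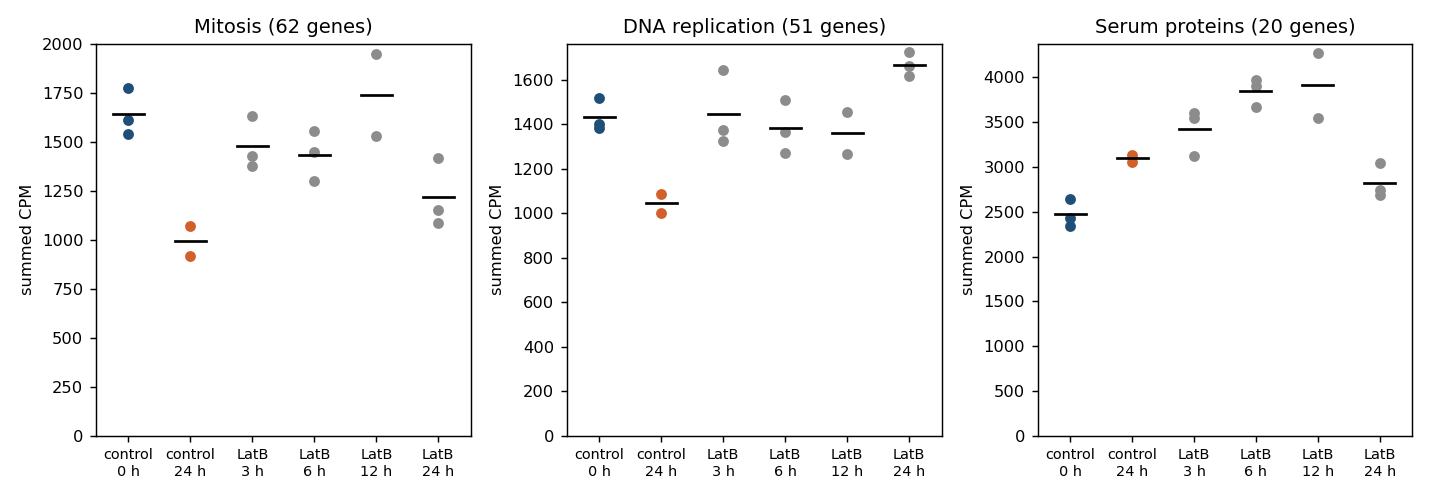
Summed CPM of 3 gene lists in each of the 16 libraries (points) by group, with bars for group means and axes from 0. Both 24 h control libraries are the lowest of all 16 for mitosis and for DNA replication.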

How the data were processed

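RNA was measured in 16 libraries, grouped by their titles. The authors deposited, for each library, estimated counts and TPM per transcript, and their processing notes name Salmon 1.3.0, DESeq2 and hg38. The study's methods describe STAR and gene counts, another route, so the settings behind these files, strand use included, are not given in the sources used here. The authors also deposited a gene table whose 16 per-sample columns, scaled gene-level signal, served only alternatives and the check of gene copies. Its columns of fold changes and p-values from the authors' own comparisons were not used.

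Transcripts were joined by identifier to GENCODE 44 (165533 of 177456 matched, and 2.92% to 3.17% of reads did not) and summed to 35810 genes, rounded to whole numbers. Genes with near-identical copies are uncertain. edgeR 4.0.16 in R 4.3.3 (quasi-likelihood test, two-sided) was fitted on all 16 libraries in 6 groups with TMM scaling and filterByExpr, leaving 16705 genes, with Benjamini-Hochberg adjustment over all of them. CPM used TMM library sizes, and the SE is the log2 fold change over the root of F. Libraries held 23609727 to 33515398 reads.

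The members, gene lists and tests were chosen with earlier results of these data known. The rule named all called genes with a symbol, the 20 most abundant protein-coding nuclear genes outside the ribosomal protein genes (2 non-coding or pseudogene entries above the 20th were left out), the 4 highest and the 4 smallest-p members of each list, and 13 genes the study follows. MKI67, SPC25, CDC25B, CDC25C, CCNA2, SERPINA3 and the markers ALB, CDH5, CFTR, FOXA2, NANOG, PTF1A, PTPRC and SOX2, outside this rule, and the 2 identifiers without a symbol were picked after their values were seen. Results for some genes are not reported here. Simulated counts for control 24 h against 0 h (16471 genes tested, 198 changed) gave 67.35% recovery at a log2 change of 1, 48% at 0.5, and 5.785% false calls. Alternatives were DESeq2 1.42.0, other scalings and filters, fewer groups, a replicate block, a length offset, limma 3.58.1 on log2 TPM and on the authors' values, same-version transcripts, stricter thresholds and leaving out libraries.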

Additional observations from a re-analysis of the deposited data

Results flagged for a closer look

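For 24 of the 42 called genes, the change from 3 h to 24 h in latrunculin B differed from the change from 0 h to 24 h in the control. This rests on a test of the difference itself in the edgeR fit (adjusted p under 0.05), which called 27.9% of all genes. The spans are 21 h and 24 h, and the genes were chosen by the control change, which is one side of this difference. Differences are given as log2 change under the drug minus log2 change in the control.

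In 18 genes the difference was positive (14.6% of all genes), and 17 of them act in division or DNA repair. Most genes called lower were placed in that group, 14 of them after their values were seen. The mitosis genes were ESPL1 (0.999), KIFC1 (0.91), HJURP (0.73), TTK (0.68), CDCA8 (0.65) and ANLN (0.56). The replication genes were GINS4 (0.80) and RRM2 (0.71). The others were FAM83D (1.34), DSCC1 (1.03), UBE2T (0.82), CCNF (0.73), FANCA (0.60), TRIP13 (0.59), CDCA4 (0.46), H2AX (0.44) and DEPDC1B (0.41). FUT1 (4.92) belongs to the genes with uncertain read assignment.

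The difference was negative in 6 genes (13.4% of all genes), FLT1 (-1.03), MAN1C1 (-0.52), ADAMTS16 (-0.37), SERPINF2 (-0.56), SERPINF1 (-0.38) and ENSG00000290854 (-1.17).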

How the results depend on the processing

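The number of genes called between control 24 h and 0 h (42) depends strongly on the setting. It was 267 with DESeq2 and 584 with DESeq2 on the control libraries alone, 218 with only the compared groups in the edgeR fit, 91 without a filter and 87 at a mean of at least 50 counts. It was 8 with RLE factors, 7 without scaling, 8 with a length offset, 2 on log2(TPM + 1), 7 on log2(TPM + 0.1), 6 with same-version transcripts, 8 on the authors' values, 2 at an adjusted p under 0.01 and 2 to 9 without 1 control library (2 without 0 h replicate 1, 3 without 24 h replicate 1). Chosen after seeing the data, the authors' values summed by symbol gave 25. With the replicate number as a block it was 6, and 8 in the control libraries alone (also added). The labels do not say that the numbers mark a shared batch, so the numbers were not taken to pair the samples. Same-numbered libraries correlated at -0.059 and -0.032 in their deviations from the group means. With 2 libraries at 24 h those deviations mirror each other, so the correlations cannot show whether the samples are paired. The cause of these shifts was not tested.

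List medians held their sign over all 20 alternatives, -0.90 to -0.63 for mitosis, -0.65 to -0.47 for DNA replication, 0.13 to 0.61 for endocrine factors and 0.21 to 0.50 for serum proteins. Of 796 alternative values of the 40 called genes without PSMB3 and FUT1, 795 kept their sign. With same-version transcripts KIF22 turned to 4.92, and the uncalled INS to -0.093 and ONECUT1 to -0.12. CDKN1C, near 0, turned to 0.059 with a length offset, 0.068 on both TPM scales, 0.063 on the authors' values, 0.096 summed by symbol and 0.017 without control 24 h replicate 1. CCN2 and SLBP are given by level alone, a choice made after seeing that their changes, near 0, took the other sign in 16 and 7 of 20 alternatives (CCN2 from -0.08 to 0.08).

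For latrunculin B 24 h against 3 h (7397 called), requiring a log2 change of at least 0.5 left 3353, leaving out 1 library gave 6271 to 6761, and without scaling 68.9% of calls were higher instead of 50.3%. For the difference of the changes (4665), a length offset gave 2978, an adjusted p under 0.01 2609 and a log2 difference of at least 0.5 2638. Leaving out 1 library gave 3012 (control 24 h replicate 1) to 4535, and without scaling 69% were positive instead of 52.1%.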
